A study of Macaca mulatta with 12 samples.

Results

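The comparison described here is how much the response of blood macrophages to an inflammatory stimulus differed between 4.5 and 19 months after transplant. It is the difference of differences (Late ACT minus Late CTL) minus (Early ACT minus Early CTL) on a log2 scale, and it used 12 of the 12 libraries, 3 in each of the 4 groups. A value below 0 means that the ratio of stimulated to unstimulated expression was lower at the late time. Rhesus macaques (Macaca mulatta) were transplanted with their own mobilized CD34+ progenitors, which had been treated with CRISPR/Cas9 to model clonal hematopoiesis; TET2 mutation is named in the title of the study. All 4 groups share that transplant, and no label marks an untransplanted or control-edited group among them. CD14+CD16-CD163+ cells, which the labels call macrophages, were sorted from peripheral blood 4.5 months (Early) or 19 months (Late) after transplant. They were kept at 250000 cells per well for 8 h without stimulus (CTL) or with interferon-gamma at 20 ng/ml together with 100 ng/ml of the bacterial cell wall component lipopolysaccharide, or LPS (ACT). Both agents are in the protocol, and only LPS is in the treatment label. The share of edited cells and the animals' ages are not given in the labels, which also do not say if the replicates came from different animals or from parallel wells. The p-values thus reflect library-to-library spread that may be technical, and animal, age, handling day and time after transplant cannot be told apart.

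LPS binds the receptor complex of TLR4 on macrophages and signals through NF-kB and MAP kinases, which switch on genes for cytokines, chemokines and their own feedback inhibitors. A second branch of the same receptor leads to type I interferon and, through it, to antiviral genes such as MX1 and the OAS family. Interferon-gamma prepares macrophages for stronger activation. TET2 is an enzyme that oxidizes methylated DNA, and its loss in blood-forming cells is a common cause of clonal hematopoiesis.

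Total counts ran from 3910680 to 12972505 per library. The library Early ACT 1 stood apart: on the second principal component, which held 11% of the variance, it lay at -61.46 against 1.49 and 1.79 for the other Early ACT libraries. Its weight in a limma voom fit was 0.22, and those of the other 11 libraries ran from 0.556 to 1.45. The sort markers CD14 and CD163 were well detected in every library, at 1376 to 2824 and 502 to 1338 CPM (counts scaled to a common library total). Summed over 10 genes of CD14 monocytes found in the table, the level was 12797 to 13204 CPM in Early CTL, 9767 to 10394 in Early ACT, 6649 to 7189 in Late CTL and 6132 to 6278 in Late ACT. Sums over 8 T cell genes were 225 to 369 CPM, over 5 platelet genes 335 to 521, over 8 neutrophil genes 86.0 to 158, over 9 dendritic cell genes 75.5 to 133 and over 5 genes of CD16 monocytes 65.6 to 93.9. B cell and NK cell genes summed to at most 23.1 CPM and 4 erythroid genes to at most 2.27, with HBA1 at 0 in every library. These sums are scaled by library totals alone. In the fit described below, which also used scaling factors, 8 of the CD14 monocyte genes were counted. Their median log2 response early was 0.09, and none passed (edgeR adjusted p under 0.05). Late against early, 8 passed as lower in each state. Of 6 neutrophil genes in the fit, 4 passed as higher late without stimulus and 1 as lower, unlike their sum. In bulk samples, fewer cells of a type and less RNA per cell cannot be told apart. The part of these differences in the results below was not tested.

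The response differed between the times in 167 of 11826 genes tested (1.41%; edgeR quasi-likelihood test, adjusted p under 0.05, here termed called), with 145 lower (1.23%) and 22 higher (0.186%) late. Of these 167 genes, 142 rose on stimulation early and 21 fell early, and in each of the 163 the late response was smaller or of opposite sign. No gene of the 167 with a called early response had a larger late response in the same direction. Such a gene would need a strong late response, and no late response passed (below), so this is not a separate result. At 4.5 months stimulation changed 855 genes (7.23%), 541 upwards (4.57%) and 314 downwards (2.66%). At 19 months no gene passed (0%; smallest adjusted p 0.0691 in edgeR). Of the 11826 genes, 527 had an unadjusted edgeR p under 0.05, a threshold that some genes pass without any response. On the same counts DESeq2 called 9 genes and limma voom 20. The median standard error of the log2 response over the 541 induced genes was 0.140 at each time. The fit estimated each gene's spread over all 12 libraries, so these errors do not measure the spread at each time. Early libraries thus also entered the errors of the late responses. The median standard deviation of log2 CPM within a group was 0.173 in Early CTL, 0.305 in Early ACT, 0.25 in Late CTL and 0.192 in Late ACT.

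The numbers of higher and lower genes depended on how libraries were scaled. The reported fit used TMM factors, which were 0.879 to 0.909 in Early ACT, 1.08 to 1.10 in Early CTL and 0.992 to 1.03 in the late groups. With library totals and no factors, an alternative chosen after the data were seen, the median difference over all genes moved from -0.01 to 0.23, and 113 genes were higher and 71 lower. With that scaling 69 early-induced and 113 early-lowered genes had a smaller late response. No gene had a larger one in the same direction, but again no late response passed, so this too is not a separate result. Without the library Early ACT 1 the counts were 121 higher and 425 lower, with 166 of the 167 genes among them, and 29 genes passed at 19 months.

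Most late estimates kept the sign of the early response. Over the 541 genes that rose early, the median log2 response was 0.74 at 4.5 months and 0.08 at 19 months, with quartiles of -0.01 and 0.21 late. The late estimate was above 0 in 396 of them (73.2%, against 50.0% of all genes tested). In 91 of them all 3 Late ACT libraries lay above all 3 Late CTL libraries (16.8%, against 4.23% of all genes). Over the 314 genes that fell early, the medians were -0.71 and -0.13, and the Late ACT libraries lay wholly below Late CTL in 79 (25.2%, against 7.50% of all genes). The early and late responses share no library.

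**Figure D1:**
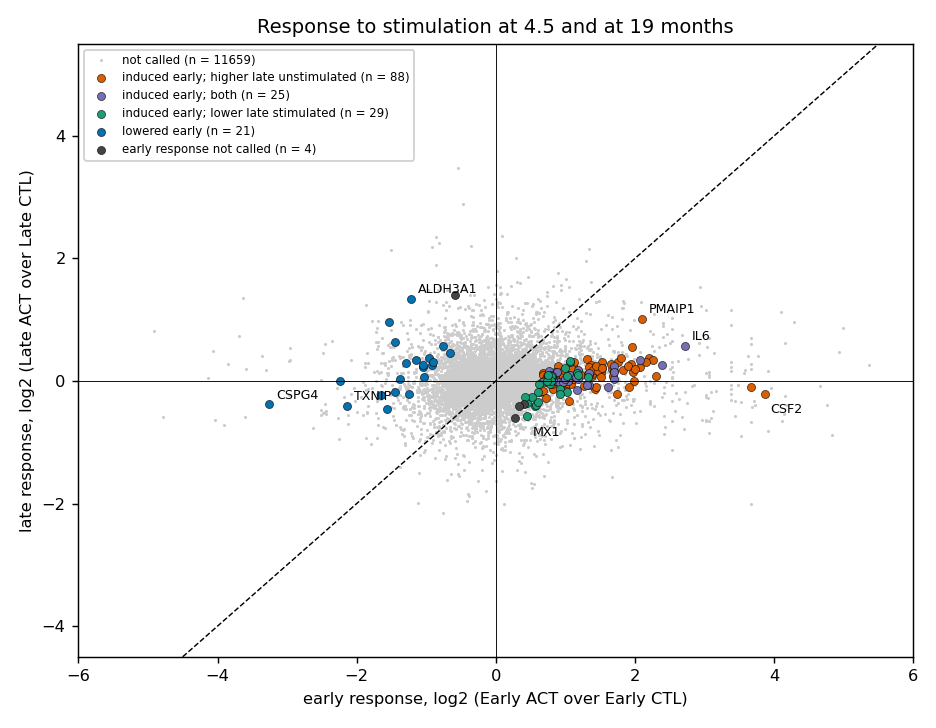
Log2 response to stimulation at 4.5 months (x axis) against 19 months (y axis), one point per gene tested, with the dashed line at equal responses. Points coloured by class are the 167 genes whose response differed; they spread along the x axis while their late responses stay between -0.60 and 1.40.

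The smaller late response of the 142 early-induced genes was then divided by which level had moved. In 88 genes (52.7% of the 167) the unstimulated level was higher at 19 months and the stimulated level was not called lower. In 29 (17.4%) the stimulated level was lower and the unstimulated level not called higher. In 25 (15.0%) both held, and none had neither. Of the 29, 12 were also called lower at 19 months without stimulus. In the first class the median late minus early log2 difference was 1.44 unstimulated and 0.10 stimulated; in the second it was -0.23 and -1.07; in the third 0.56 and -0.44. These contrasts share libraries with the difference of responses, so the division is a description. Many genes not in these classes also differed between the times: late against early, 4813 genes (40.7%) were called without stimulus, 20.9% of all genes upwards and 19.8% downwards, and 4589 (38.8%) with it, 19.1% upwards and 19.7% downwards. The classes held 265, 88 and 57 genes without Early ACT 1, and 52, 6 and 11 with library totals alone. With upper-quartile factors 21 of 166 shared genes changed class.

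**Figure D2:**
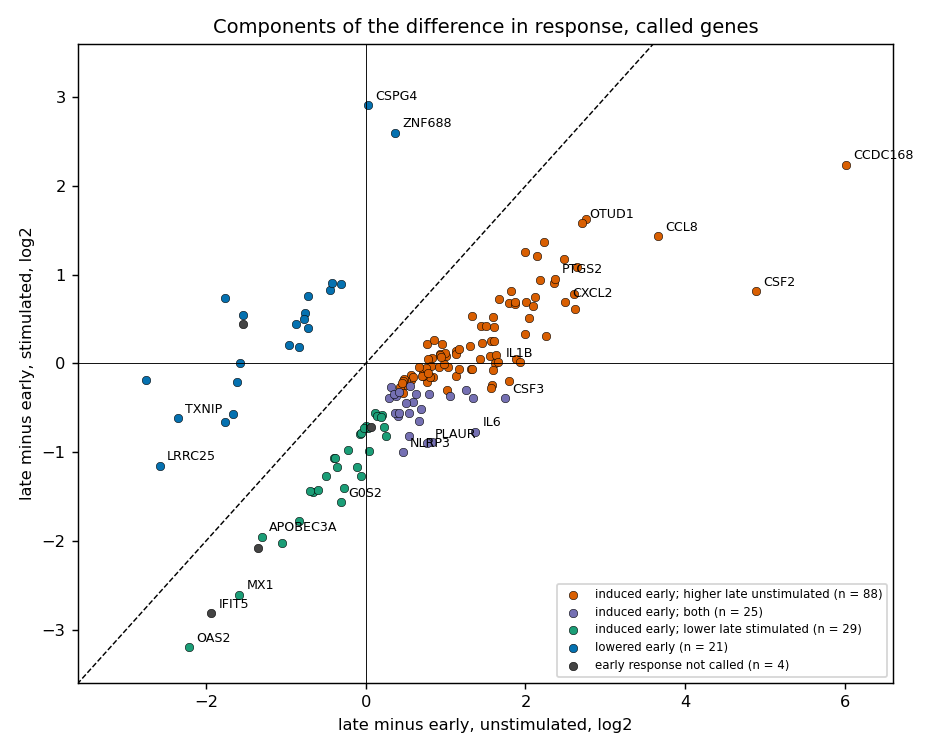
Late minus early log2 difference without stimulus (x axis) and with it (y axis) for the 167 genes whose response differed, coloured by class. Points below the dashed line had a lower log2 response late; IL1B lies to the right near 0 on the y axis, while MX1 and OAS2 lie at the lower left.

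Of 15 inflammatory cytokine genes tested, 9 had a lower response late (1.23% of all genes) and none a higher one. Of these 9, 5 were of the higher unstimulated class and 4 of both. Over the 15 the median log2 response was 1.70 early and 0.07 late, against -0.01 for the difference over all genes and -1.44 for these. The count stayed at 9 with library totals alone and was 11 without Early ACT 1, and the classes held 8 and 1 with upper-quartile factors and with library totals alone. IL1A, IL1B and IL36G, whose names came only from the authors' tables of late against early changes, were counted apart, and all 3 were lower.

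IL1B encodes interleukin-1 beta, the fever-inducing cytokine that inflammasomes release, and lies at chr13:107818918-107828254 (coordinates are the authors', for build Mmul_8.0.1). It measured 13573, 13852 and 14733 CPM in Early CTL, 45285, 38592 and 39012 in Early ACT, 40743, 37173 and 46829 in Late CTL, and 47100, 44283 and 46134 in Late ACT. The 3 Early CTL libraries stood below all others, and the late unstimulated libraries overlapped both stimulated groups. Its log2 response was 1.82 ± 0.11 (SE) early and 0.17 ± 0.11 late, a difference of -1.65 ± 0.15 (edgeR adjusted p 9.72e-08), or a 3.14-fold smaller ratio.

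TNF, the tumor necrosis factor gene (chr4:32435035-32436829), measured 420, 420 and 435 CPM in Early CTL and 1620, 1144 and 1174 in Early ACT. Its late values were 1116, 1131 and 1344 CPM in Late CTL and 1316, 1384 and 1444 in Late ACT. The late unstimulated libraries again overlapped the early stimulated ones, and the late groups overlapped each other. The difference of log2 responses was -1.67 ± 0.18 (edgeR adjusted p 1.13e-06), with late minus early at 1.59 unstimulated and -0.08 stimulated.

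IL12B, the p40 subunit shared by interleukins 12 and 23, was low, at 0.961 to 3.30 CPM in Early CTL, 5.00 to 7.58 in Early ACT, 8.84 to 10.6 in Late CTL and 7.01 to 10.6 in Late ACT. All Late CTL libraries lay above all Early ACT libraries. Its difference of -1.95 ± 0.44 (edgeR adjusted p 0.0201) lost its call in 6 of the 12 fits that left out 1 library. CSF2, which encodes the growth factor GM-CSF and was named after its values were seen, had the lowest estimate of all 167 genes at -4.07. It rests on a mean of 0.0644 CPM in Early CTL and at most 2.46 CPM in the other groups.

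Chemokines are secreted proteins that draw leukocytes to a site. Of 7 tested, 4 had a lower response late (1.23% of all genes) and none a higher one. These were CCL2, CCL7, CCL8 and CCL20, all with a higher late unstimulated level. CXCL10, CXCL16 and CCL18 were not called. Late against early without stimulus, 5 of the 7 were called higher and 2 lower. With library totals alone 3 were lower. Another 5 had names only from the authors' tables, and 4 of these were lower.

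CCL20, which attracts cells bearing CCR6, measured 208, 220 and 230 CPM in Early CTL, 520, 609 and 620 in Early ACT, 597, 644 and 656 in Late CTL, and 688, 668 and 595 in Late ACT. Early CTL alone stood apart, and the other groups overlapped. The difference was -1.61 ± 0.15 (edgeR adjusted p 1.34e-07).

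CCL3, a chemokine that attracts monocytes, measured 596, 616 and 614 CPM in Early CTL, 1992, 2169 and 2166 in Early ACT, 1882, 2010 and 2409 in Late CTL, and 2349, 2502 and 2406 in Late ACT. Its log2 response was 2.07 ± 0.11 early and 0.24 ± 0.11 late. CCL4L1 had a difference of -1.82 ± 0.16; it stood out from CCL3 in that Late CTL, at 4411 to 5601 CPM, lay below Early ACT, at 6137 to 7507.

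The neutrophil attractants CXCL1, CXCL2 and CXCL3 had differences of -1.99 ± 0.17, -1.80 ± 0.19 and -1.66 ± 0.16. CXCL2 was one of 28 genes of the class that were also called higher late when stimulated: it measured 1973 to 2105 CPM in Early CTL, 4639, 7589 and 7945 in Early ACT, 10318 to 11079 in Late CTL and 11640 to 12650 in Late ACT. Each late library exceeded each early one. Early ACT 1 was the lowest Early ACT library for CXCL1, CXCL2 and CXCL3. These CXCL genes, and CCL3 with CCL4L1, are close paralogs whose reads can be shared in counting, so their separate values are uncertain. CCL8 was low, at 0.406 to 0.640 CPM in Early CTL and 5.55 to 7.67 in Late CTL, and lost its call in 6 of 21 alternatives. CCDC168, named by the rule, had only 2 counts over Early CTL against 99 over Late CTL, so no fold is given.

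PTGS2 encodes cyclooxygenase-2, the inducible enzyme of prostaglandin synthesis (chr1:180538285-180548777). It measured 1665, 1716 and 1620 CPM in Early CTL, 3120, 5676 and 5592 in Early ACT, 8382, 8577 and 7223 in Late CTL, and 10990, 9772 and 10024 in Late ACT. The groups did not overlap, and unstimulated late cells lay above stimulated early cells. The log2 response was 1.80 ± 0.15 early and 0.38 ± 0.15 late, a difference of -1.41 ± 0.21 (edgeR adjusted p 1.32e-04). It was the single gene called among 12 prostaglandin and leukotriene genes tested (1.41% of all genes), whose median difference was 0.03.

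Matrix protease and coagulation genes contributed 7 lower responses of 23 tested (1.23% of all genes) and none higher, with 5 in the higher unstimulated class. With library totals alone 5 were lower. MMP10, a secreted protease called stromelysin-2, measured 206, 216 and 228 CPM in Early CTL, 452, 508 and 530 in Early ACT, 812, 780 and 853 in Late CTL, and 930, 879 and 863 in Late ACT. The groups formed 4 separate steps in that order, and the difference was -1.31 ± 0.15 (edgeR adjusted p 2.26e-06).

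SERPINB2, the intracellular inhibitor of urokinase also called PAI-2, was among the most abundant transcripts, at 13856 to 14101 CPM in Early CTL, 22118 to 25121 in Early ACT, 23061 to 24284 in Late CTL and 23083 to 25012 in Late ACT. The last 3 groups overlapped, and the difference was -0.99 ± 0.14. TFPI2, a Kunitz-type protease inhibitor, differed by -1.20 ± 0.18. PLAU, the urokinase gene, was called for its difference although its early response was not.

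Genes of the class called both had a higher unstimulated and a lower stimulated level late than early. IL6, the interleukin-6 gene (chr3:85553880-85559671), measured 37.3, 31.8 and 33.1 CPM in Early CTL, 174, 184 and 195 in Early ACT, 82.3, 79.6 and 85.3 in Late CTL, and 130, 108 and 121 in Late ACT. No groups overlapped, and both late groups lay between the early ones. Its log2 response was 2.72 ± 0.13 early and 0.57 ± 0.12 late, a difference of -2.14 ± 0.17 (edgeR adjusted p 9.17e-09), or a 4.41-fold smaller ratio. The late response of IL6 did not pass with all libraries (edgeR adjusted p 0.111) and passed without Early ACT 1 (0.58 ± 0.09, adjusted p 1.82e-04).

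CSF3, which encodes the granulocyte growth factor G-CSF, measured 194, 191 and 181 CPM in Early CTL, 648, 923 and 876 in Early ACT, 613, 545 and 612 in Late CTL, and 692, 687 and 688 in Late ACT. Early ACT 1 was the lowest of its group. In CPM it lay below the Late ACT libraries, whereas the other Early ACT libraries lay above them. With the TMM factors, 0.879 for Early ACT 1 and 0.992 to 1.01 in Late ACT, each Early ACT library lay above Late ACT. The difference was -2.13 ± 0.17 (edgeR adjusted p 9.17e-09). IL23A, the p19 subunit of interleukin 23, differed by -1.56 ± 0.17 and CSF1, the macrophage growth factor gene, by -1.41 ± 0.17.

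NLRP3, the sensor of the inflammasome that matures interleukin-1 beta (chr1:224050419-224079599), measured 256, 265 and 262 CPM in Early CTL, 774, 671 and 660 in Early ACT, 346, 325 and 340 in Late CTL, and 378, 397 and 395 in Late ACT. The late groups lay near each other, above Early CTL and well below Early ACT. Its log2 response was 1.70 ± 0.11 early and 0.24 ± 0.11 late (difference -1.46 ± 0.15, edgeR adjusted p 5.67e-07). GSDME, a gasdermin that forms pores in dying cells, differed by -0.75 ± 0.16. NLRP3 and GSDME were the 2 genes called of 16 in the inflammasome and cell death list (1.41% of all genes). The median difference of that list was -0.14. With library totals alone GSDME was not called (edgeR adjusted p 0.0968), nor was it without Early CTL 2 (0.0608).

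PLAUR, the urokinase receptor, measured 438, 456 and 485 CPM in Early CTL, 1528, 1076 and 1089 in Early ACT, 671, 682 and 854 in Late CTL, and 731, 719 and 749 in Late ACT. Here Early ACT 1 was the highest library, unlike for CSF3 and PTGS2. The difference was -1.67 ± 0.19 (edgeR adjusted p 2.03e-06). PDPN, the membrane glycoprotein podoplanin, and PGLYRP2, a peptidoglycan-cleaving enzyme, differed by -1.71 ± 0.33 and -1.36 ± 0.29.

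**Figure D3:**
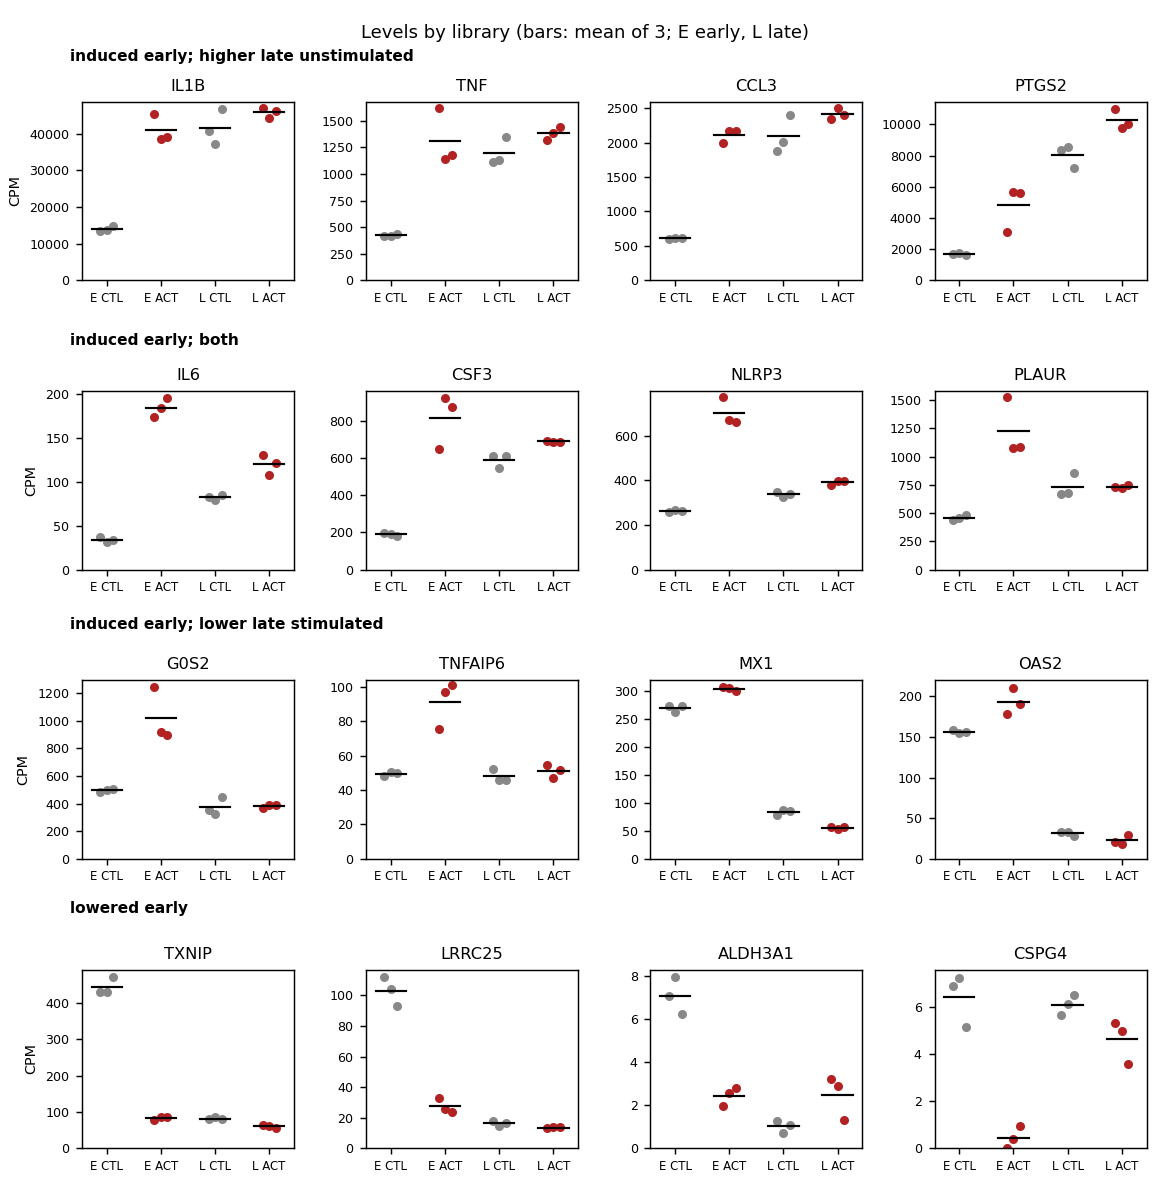
CPM in each of the 12 libraries for 16 genes, 4 per class, with grey points for unstimulated and red for stimulated libraries and bars at the mean of 3. In the top row the late unstimulated level lies near the early stimulated one or above it (for TNF, means of 1197 and 1313 CPM). In the second row the late unstimulated level lies between the early levels. In the third row the late stimulated level lies below the early one, and in the bottom row stimulation lowered the early level.

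In the integrated stress response, the factor ATF4 raises genes of amino acid supply. Of 19 of its genes tested, 7 had a lower response late (1.23% of all genes) and none a higher one. Of these 7, 4 were of both. With library totals alone 4 were lower, and without Early ACT 1 the count was 11. CHAC1, which degrades glutathione, measured 38.3, 32.7 and 34.7 CPM in Early CTL, 71.1, 77.4 and 70.8 in Early ACT, 50.4, 53.1 and 55.2 in Late CTL, and 58.5, 59.2 and 53.3 in Late ACT. Both late groups lay between the early ones, and the difference was -1.20 ± 0.18 (edgeR adjusted p 1.76e-04).

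ASNS, asparagine synthetase, measured 11.3 to 17.8 CPM in Early CTL, 24.1 to 43.9 in Early ACT, 40.1 to 43.5 in Late CTL and 44.2 to 52.5 in Late ACT, with a difference of -1.31 ± 0.26. SESN2, a stress-induced inhibitor of mTORC1, and SLC3A2, the heavy chain of amino acid exchangers, differed by -0.97 ± 0.17 and -0.95 ± 0.19. SLC2A1, the glucose transporter GLUT1, differed by -1.03 ± 0.15 and was of both. It and VEGFA were the 2 of 23 glycolysis and hypoxia genes called (1.41% of all genes). VEGFA, a vessel growth factor (-0.55 ± 0.14, edgeR adjusted p 0.0467), lost its call in 14 of 21 alternatives, library totals alone among them (0.259).

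The lower late stimulated class was led by G0S2, an inhibitor of the triglyceride lipase ATGL (chr1:156838931-156839867). It measured 486, 497 and 506 CPM in Early CTL, 1247, 917 and 897 in Early ACT, 356, 325 and 445 in Late CTL, and 370, 392 and 391 in Late ACT. The late groups overlapped and lay below both early groups. The log2 response was 1.32 ± 0.13 early and 0.07 ± 0.13 late (difference -1.25 ± 0.19, edgeR adjusted p 1.93e-04).

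TNFAIP6, which encodes the hyaluronan-binding protein TSG-6, measured 48.0, 50.3 and 50.0 CPM in Early CTL, 75.4, 96.8 and 101 in Early ACT, 52.2, 45.6 and 46.0 in Late CTL, and 54.7, 47.2 and 51.5 in Late ACT. Early ACT alone stood apart from the rest. Late minus early was 0.04 unstimulated and -0.99 stimulated, and the difference of responses was -1.03 ± 0.19 (edgeR adjusted p 0.00230). PCK2, the mitochondrial enzyme that makes phosphoenolpyruvate, and TREML1 differed by -1.08 ± 0.20 and -1.21 ± 0.23. PLSCR1, a phospholipid scramblase, differed by -1.13 ± 0.23 and MT1L by -1.06 ± 0.27, both named from a description in the authors' tables, where the name table has another name for the former. PLSCR1 lost its call with library totals alone (edgeR adjusted p 0.0610), and MT1L in 10 of 21 alternatives, those totals among them (0.124).

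Feedback inhibitors of NF-kB were divided between the classes. NFKBIA, the inhibitor IkB-alpha, measured 6401, 6286 and 6680 CPM in Early CTL, 10568, 8495 and 8615 in Early ACT, 6466, 6653 and 7793 in Late CTL, and 6591, 6931 and 6962 in Late ACT. Early ACT stood above all other libraries, which overlapped. The difference was -0.79 ± 0.16 (edgeR adjusted p 0.00571), and the call was lost with library totals alone (0.0647).

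TNFAIP3, the ubiquitin-editing enzyme A20, was of both (-0.92 ± 0.14) and TRAF1, an adaptor of TNF receptors, of the higher unstimulated class (-0.89 ± 0.17). These were the 3 called of 21 NF-kB genes tested (1.41% of all genes), whose median difference was -0.24, or 0.00 with library totals alone. With upper-quartile factors, 1 was of the higher unstimulated class, 0 of the lower stimulated class and 2 of both. Another 2 had names only from the authors' tables, and 1 was lower. This was NFKBIZ, of the higher unstimulated class (-0.86, edgeR adjusted p 0.0426), which lost its call in 14 of 21 alternatives. ACOD1, the itaconate-producing enzyme, named after its values were seen and with a name only in the authors' tables, differed by -0.79 ± 0.14, with 7941 to 8044 CPM in Early ACT and 5735 to 5937 in Late ACT. Among 9 MAP kinase phosphatase and mRNA decay genes and 19 Toll-like receptor sensing genes tested, edgeR with all libraries called none (1.41% of all genes). An unadjusted edgeR p under 0.05 was found in 4 and 5 of them. DESeq2 called 1 of each list, limma voom 3 and 2, and edgeR without Early ACT 1 called 2 of each. TLR4 itself measured 710 to 946 CPM over the 12 libraries, with all groups overlapping and a difference of -0.40 ± 0.16 (edgeR adjusted p 0.299).

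Type I interferon-stimulated genes were mostly lower late in both states. Of 32 tested, 6 had a lower response late (1.23% of all genes) and none a higher one. MX1, OAS2, ISG20 and DHX58 were of the lower late stimulated class, and the early response of MX2 and IFIT5 was not called. Without stimulation 26 of the 32 were called lower at 19 months (19.8% of all genes) and 1 higher, and with stimulation 29 were called lower (19.7% of all genes) and none higher. The median late minus early difference was -0.94 unstimulated and -1.52 stimulated. With library totals alone 1 of the 32 had a lower response, and without Early ACT 1 the count was 13.

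MX1, an antiviral GTPase (chr3:5221826-5251031), measured 273, 262 and 272 CPM in Early CTL, 306, 304 and 300 in Early ACT, 78.0, 88.0 and 85.8 in Late CTL, and 56.2, 52.4 and 56.8 in Late ACT. No groups overlapped: stimulated libraries lay above unstimulated ones early and below them late. The log2 response was 0.45 ± 0.11 early (edgeR adjusted p 0.00782) and -0.57 ± 0.11 late (adjusted p 0.0691), and the difference of -1.02 ± 0.15 passed (adjusted p 1.96e-04). The late response passed without Early ACT 1, at -0.58 ± 0.09 (edgeR adjusted p 5.48e-05).

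OAS2, which makes the oligoadenylates that activate RNase L, measured 158, 155 and 156 CPM in Early CTL, 178, 210 and 191 in Early ACT, 33.5, 33.2 and 27.8 in Late CTL, and 21.0, 18.7 and 29.9 in Late ACT. The early groups did not overlap, and the late groups did. The difference was -0.98 ± 0.20 (edgeR adjusted p 0.00888), with the call lost with library totals alone (0.0697) and without Late ACT 2 (0.0541). MX2 differed by -0.73 ± 0.16 and IFIT5, which binds foreign RNA and was named after its values were seen, by -0.88 ± 0.22; each lost its call with library totals alone, MX2 in 5 and IFIT5 in 11 of 21 alternatives in all. PML, the organizer of nuclear bodies and likewise named after its values were seen, measured 187 to 213 CPM in Early CTL, 237 to 261 in Early ACT, 87.5 to 101 in Late CTL and 53.2 to 80.3 in Late ACT, with a difference of -0.97 ± 0.18 (edgeR adjusted p 0.00376).

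Other antiviral genes, named after their values were seen, had no called difference and were higher with stimulation at both times. OASL, an OAS-like protein, measured 135, 134 and 152 CPM in Early CTL, 329, 228 and 239 in Early ACT, 36.6, 34.4 and 43.5 in Late CTL, and 59.8, 54.6 and 62.5 in Late ACT. Stimulated libraries lay above unstimulated ones at each time, from a late level below the early one. The difference of log2 responses was -0.53 ± 0.20 (edgeR adjusted p 0.284). DHX58, an RNA helicase that was called (-0.74 ± 0.18) and lost its call in 10 of 21 alternatives, also lay higher with stimulation at both times, at 86.2 to 92.9 CPM in Late CTL and 98.5 to 121 in Late ACT.

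Of 20 interferon-gamma response genes tested, none had a called difference of responses in edgeR (1.41% of all genes) or DESeq2 with all libraries. Of the 20, 3 had an unadjusted p under 0.05 in edgeR. Limma voom and edgeR without Early ACT 1 each called 2, both lower. The early response itself was called in 2 of them, both upwards (4.57% of all genes). IDO1, the tryptophan-degrading enzyme, measured 3888 to 4289 CPM in Early CTL, 4463 to 5709 in Early ACT, 4161 to 4798 in Late CTL and 4408 to 4614 in Late ACT. FCGR1A, the high-affinity IgG receptor CD64, had a log2 response of 0.47 ± 0.11 early and 0.09 ± 0.12 late. CXCL10, a chemokine induced by interferon-gamma and named after its values were seen, lay lower in Early ACT (12.6, 17.6 and 19.3 CPM) than in each Early CTL library (29.8 ± 4.27 CPM, SD, n = 3), and at 2.45 to 6.90 CPM late. Its early log2 response of -0.55 ± 0.22 did not pass (edgeR adjusted p 0.136). Late against early, 14 of the 20 genes were called lower unstimulated (19.8% of all genes) and 16 stimulated (19.7% of all genes).

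**Figure D4:**
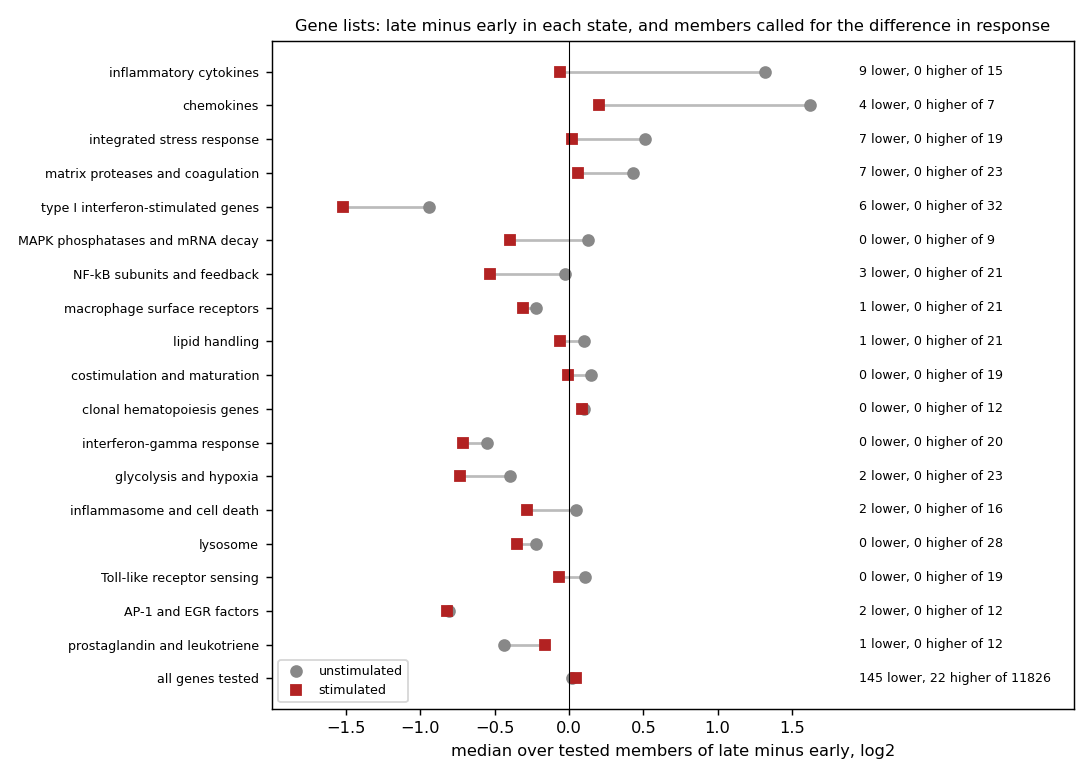
Median late minus early log2 difference over the tested members of each of 18 gene lists, unstimulated (grey circles) and stimulated (red squares), with the number called for the difference in response at right and all genes tested in the bottom line. For inflammatory cytokines and chemokines the unstimulated median lies far to the right of the stimulated one, and for type I interferon-stimulated genes both lie left of 0.

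The 21 genes that fell early were a mirror image: in 15 the late unstimulated level was lower, in 4 the late stimulated level was higher, and in 2 both held. TXNIP, which binds thioredoxin and limits glucose uptake (chr1:121623743-121630937), measured 429, 429 and 471 CPM in Early CTL, 76.7, 85.6 and 86.7 in Early ACT, 79.5, 84.5 and 80.1 in Late CTL, and 63.9, 61.0 and 55.2 in Late ACT. Late unstimulated cells lay at the level of early stimulated cells. TXNIP had a log2 response of -2.14 ± 0.12 early and -0.41 ± 0.12 late, with a difference of 1.73 ± 0.16 (edgeR adjusted p 9.72e-08).

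LRRC25, a leucine-rich repeat protein of myeloid cells, measured 103 ± 9.40 CPM (SD, n = 3) in Early CTL, 27.4 ± 4.96 in Early ACT, 16.3 ± 1.75 in Late CTL and 13.4 ± 0.364 in Late ACT. The groups ran from high to low in that order without overlap. The difference was 1.43 ± 0.23 (edgeR adjusted p 3.56e-04).

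CSPG4, a membrane proteoglycan, was low: 6.89, 7.21 and 5.14 CPM in Early CTL, 0, 0.385 and 0.928 in Early ACT, 5.63, 6.12 and 6.48 in Late CTL, and 5.29, 4.97 and 3.56 in Late ACT. Only Early ACT stood apart, and the difference of 2.88 ± 0.55 (edgeR adjusted p 0.00376) rests on 17 counts in that group. ALDH3A1, an aldehyde dehydrogenase, measured 6.24 to 7.92 CPM in Early CTL, 1.96 to 2.78 in Early ACT, 0.680 to 1.28 in Late CTL and 1.29 to 3.22 in Late ACT. It differed by 2.57 ± 0.56 and lost its call in 3 of the fits without 1 library. ASB7, ARID4A, DSTYK and SHPRH, all under 22 CPM, had differences of 1.33 to 2.08 and each lost its call in more than 5 alternatives.

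Surface receptor, lysosome, lipid handling, costimulation and clonal hematopoiesis genes gave at most 1 call per list. Of all genes tested 1.41% were called, so few calls in lists of this size do not set these genes apart. TREM2, a lipid-sensing receptor of macrophages, was the 1 called of 21 surface receptors (-0.67 ± 0.17, edgeR adjusted p 0.0377), and it lost its call in 12 of 21 alternatives, library totals alone among them (0.187). PLIN2, the lipid droplet coat protein, was the 1 called of 21 lipid handling genes (-0.85 ± 0.17; adjusted p 0.0583 with library totals alone). Among 28 lysosome, 19 costimulation and 12 clonal hematopoiesis genes tested none was called in edgeR with all libraries, and 5, 3 and 2 had an unadjusted p under 0.05. DESeq2 called 1, 2 and 0 of them, limma voom 2, 3 and 1, and edgeR without Early ACT 1 called 2, 4 and 1. FOSL1 and MAFF, AP-1 family factors, were the 2 called of 12, at -0.74 ± 0.15 and -0.70 ± 0.15, and neither passed with library totals alone.

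TET2, the gene named in the study's title, measured 269, 281 and 262 CPM in Early CTL, 250, 312 and 306 in Early ACT, 415, 427 and 418 in Late CTL, and 437, 418 and 420 in Late ACT. The late libraries lay above the early ones, and within each time the states overlapped in CPM. With the TMM factors, 1.08 to 1.10 in Early CTL and 0.879 to 0.909 in Early ACT, the early states did not overlap. The difference of responses was -0.32 ± 0.15 and did not pass with all libraries (edgeR adjusted p 0.433). It passed with limma voom (adjusted p 0.0162) and in edgeR without Early ACT 1 (0.0114). These counts do not show which alleles were edited. CD14 and CD163 differed by -0.29 ± 0.18 and -0.24 ± 0.16, and neither passed.

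A few genes, named after their values were seen, kept a sizeable response at 19 months. PMAIP1, which encodes the cell death protein NOXA, measured 39.1, 44.2 and 40.6 CPM in Early CTL, 78.2, 174 and 183 in Early ACT, 107, 117 and 106 in Late CTL, and 231, 200 and 222 in Late ACT. Stimulated libraries lay above unstimulated ones late as well, and Early ACT 1 lay far below its group. The log2 response was 2.10 ± 0.19 early and 1.01 ± 0.19 late (edgeR adjusted p 0.0691), and the difference was -1.08 ± 0.27 (adjusted p 0.0379), a call lost in 12 of 21 alternatives (0.134 with library totals alone). Without Early ACT 1 the late response passed at 1.01 ± 0.09.

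DDX60, an antiviral helicase, had a log2 response of 2.08 ± 0.24 early and 1.30 ± 0.23 late. TNFSF8, the ligand of CD30, measured 499 to 542 CPM in Early CTL, 671 to 735 in Early ACT, 316 to 326 in Late CTL and 437 to 465 in Late ACT, with responses of 0.70 ± 0.10 and 0.53 ± 0.10. IL12A, the p35 subunit of interleukin 12, had responses of 2.93 ± 0.36 and 1.53 ± 0.30. Their differences of responses did not pass with all libraries (edgeR adjusted p 0.358, 0.728 and 0.191). Without Early ACT 1 those of DDX60 (edgeR adjusted p 0.0176) and IL12A (0.0469) passed, and that of DDX60 also passed with limma voom. Of the 29 genes called at 19 months without Early ACT 1, 19 rose and 10 fell, 27 had an early estimate of the same sign, and 13 were also called for the difference.

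The calls were more frequent among abundant genes. None of 630 genes with a mean under 1 CPM was called, against 0.326% of those from 1 to 10 CPM, 1.40% from 10 to 100, 3.88% from 100 to 1000, and 18.5% of 151 genes at 1000 CPM or more. The 28 genes called in the most abundant group were all lower. The median standard error of the difference fell from 1.29 in the rarest group to 0.161 in the most abundant, so a difference of -0.94, the median of the 167 genes, lay within 1 standard error of 0 in the rarest group and was not detectable there at this depth.

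**Figure D5:**
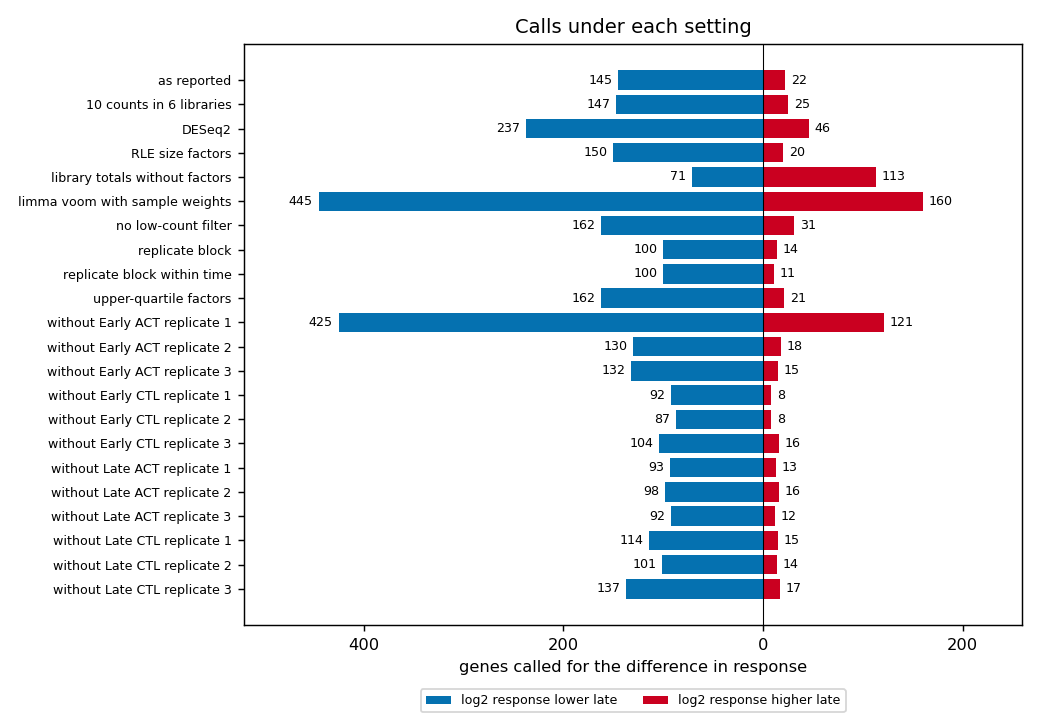
Number of genes called for a lower (blue, left) or higher (red, right) log2 response late, as reported and under each of 21 alternatives, with counts printed at the bars. Bars run from 87 to 445 genes lower outside library totals without factors, where 71 are lower and 113 higher.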

How the data were processed

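RNA-seq of 12 libraries in 4 groups of 3 was analysed. Libraries came from the SMART-Seq v4 and Nextera XT kits, per the labels' protocols, and carry no strand information. The deposited count table holds a raw read count for each of 32386 genes, 6017 of them at 0 throughout. The build Mmul_8.0.1 and bcl2fastq come from the submitters' processing notes; the aligner and counter were not given in the sources used here. The authors also deposited 2 tables that list genes changed late against early, made from their own comparison, and these served only for names and coordinates. Per the file headers, the authors' tables hold a mean normalized signal, a log2 fold change with its error, a test score and a p-value with its adjusted value. Names were usable for 15716 genes, 12621 through the name list and 2511 as symbols in the deposited table; genes without one held 12.4% of counts, and CXCL8 had none and is not analysed here.

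Counts were tested in edgeR 4.0.16 (R 4.3.3; quasi-likelihood F test, robust, TMM, filterByExpr by group, 1 coefficient per group, no covariate), leaving 11826 genes with a biological coefficient of variation of 0.143. The Benjamini-Hochberg adjustment ran over the 11826 genes, and an adjusted p under 0.05 counted as called. A standard error is the size of the log2 value over the square root of F. CPM are scaled to library totals without TMM factors, so a ratio of CPM differs from a fitted fold. Overlap between groups is given for CPM and can differ on the fitted scale, mostly where Early CTL or Early ACT is compared. The script was tested on simulated data. Alternatives were other factors, filters, DESeq2 1.42.0, limma 3.58.1 (voom with sample weights), a replicate block, each library left out, another division into classes and a threshold of 0.1; library totals alone were added after the data were seen. By the rule, up to 8 genes per class are named (largest difference, mean of at least 5 CPM in a group), up to 4 per list by smallest p, and TET2, CD14, CD163, NLRP3, CXCL8, TNF, IL6 and IL1B. The members and lists were chosen with earlier results of these data known.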

Additional observations from a re-analysis of the deposited data

Results flagged for a closer look

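The test of the difference between the times itself singled out 22 genes with a higher and 145 with a lower log2 response at 19 months. In 18 called genes the late estimate also had the opposite sign to the early one with a size above 0.3 on the log2 scale. From above 0 early to below 0 late went the antiviral genes MX1 (difference -1.02), OAS2 (-0.98), IFIT5 (-0.88) and MX2 (-0.73), and with them PML (-0.97), TRIM21 (-0.81), PLAU (-0.78), RAB24 (-0.94) and MYOM1 (-1.38). ALDH3A1 (2.57), RPP38 (2.49), ASB7 (2.08), ACADSB (1.98), ARID4A (1.48), SHPRH (1.33), ZNF639 (1.33), BAZ1B (1.21) and USP1 (1.12) went from below 0 to above 0. The early responses of IFIT5, MX2, PLAU and ACADSB were not called (edgeR adjusted p 0.246, 0.0664, 0.0675 and 0.259), so their early sign is uncertain. In CPM without scaling factors, IFIT5 had means of 75.5 in Early CTL and 75.2 in Early ACT. None of the 18 late responses passed with all 12 libraries in edgeR, where the smallest adjusted p was 0.0691, for MX1. Without Early ACT 1 the late responses of MX1 and MX2 passed.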

How the results depend on the processing

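Of 61 named genes called for the difference, none changed direction and 37 kept the call under each of up to 21 alternatives. With library totals and no factors, 113 genes were higher and 71 lower, the classes of higher unstimulated and lower stimulated level held 52 and 6 genes, and 113 early-lowered genes had a smaller late response. DESeq2 gave 46 higher and 237 lower, with 150, 51 and 40 genes in those groups, and limma voom gave 160 and 445, with 274, 102 and 146. With an adjusted p under 0.1 the early-lowered group held 41. Leaving out 1 library gave 8 to 121 genes higher and 87 to 425 lower, 55 to 265 with a higher unstimulated level, 12 to 88 with a lower stimulated level and 7 to 105 early-lowered. The highest values came without Early ACT 1. Counts of lower genes more than 1.5 times below the reported 145 came without Early CTL 1 (92), Early CTL 2 (87), Late ACT 1 (93) and Late ACT 3 (92). For genes higher, the same held without those 4 libraries and Late CTL 2 (8, 8, 13, 12 and 14). The higher unstimulated class was as far below only without Early CTL 2 (55) and Late ACT 3 (58). The lower stimulated class was so without each Early CTL library, each Late ACT library and Late CTL 2. The early-lowered group was so without each Early CTL library, Late ACT 1, Late ACT 3 and Late CTL 1. The cause was not tested.

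Correlations of deviations between same-numbered libraries ran from -0.09 to 0.10, so no pairing by replicate number was seen. They cannot exclude a shared animal or well, because spread between libraries that may be technical could hide it. With the replicate block 114 genes were called, all among the 167, with 14 higher, 12 of lower stimulated level and 13 early-lowered. With the replicate block within time 111 were called, 11 higher and 11 early-lowered. Upper-quartile factors moved the median late minus early difference of all genes to 0.15 in each state, from 0.02 and 0.05.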

Other observations

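Some genes for aminoacyl-tRNA synthetases, enzymes that charge tRNAs with amino acids, were picked from the 167 after the values were known. They were on no list, and the number of such genes tested was not counted; WARS, a synthetase gene of the interferon-gamma list, was not called (edgeR adjusted p 0.373). AARS had a mean of 197 CPM in Early CTL, 301 in Early ACT, 246 in Late CTL and 268 in Late ACT, and its difference of -0.73 passed (edgeR adjusted p 0.0207). YARS1 and AARS were of both; IARS, GARS1, SARS and FARS2 had a higher late unstimulated level. Their differences ran from -0.68 for SARS to -1.23 for FARS2. SHMT2, the mitochondrial serine hydroxymethyltransferase, and CTH, which makes cysteine, differed by -1.09 and -1.54.

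IL1R2, the decoy receptor of interleukin 1, was of the lower late stimulated class, with means of 38.7, 65.3, 42.5 and 43.9 CPM in Early CTL, Early ACT, Late CTL and Late ACT and a difference of -0.94 (edgeR adjusted p 0.00806). GPR84, a receptor of medium-chain fatty acids, had means of 288, 407, 177 and 169 CPM in the same order and a difference of -0.82. ACADSB, an acyl-CoA dehydrogenase, was the 1 gene called for a higher late response without a called early one; it measured 4.31 to 6.89 CPM in Early CTL, 2.94 to 3.04 in Early ACT, 1.53 to 1.90 in Late CTL and 3.78 to 5.03 in Late ACT.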
